A study of Homo sapiens with 12 samples.

Results

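Sterol and fatty acid synthesis genes were followed in MeWo and SkMel28, 2 human melanoma lines engineered to express a hairpin that targets MITF, the transcription factor of the melanocyte lineage, when doxycycline (Dox) is added. The genes were taken by symbol: 24 of the cholesterol arm and 17 of the fatty acid arm, all 41 of which were among the 12616 genes of the table. Both lines carried the hairpin in all 4 groups, and each group held 3 libraries: MeWo control, MeWo Dox, SkMel28 control and SkMel28 Dox. Controls received 0 and treated cells 1 µg/ml Dox for 8 days. The labels give EMEM as the medium of MeWo and RPMI as that of SkMel28, both with serum, so that line and medium cannot be told apart. There was no line given Dox without this hairpin, and the effects of drug and hairpin cannot be told apart either. The labels do not say whether the 3 libraries of a group came from separate cultures, and p-values measure the spread between these libraries.

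Cells make cholesterol from acetyl-CoA by way of mevalonate, squalene and lanosterol, and make saturated fatty acids with ACLY, ACACA and FASN, after which desaturases add double bonds and elongases lengthen the chain. Transcription of both arms is driven by the SREBP factors encoded by SREBF1 and SREBF2, which SCAP escorts out of the endoplasmic reticulum when sterols are low and INSIG proteins hold back when sterols are high. MITF binds E-box sequences, and SCD has been described as one of its targets in melanoma.

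The start regions of 6 genes are printed because the Dox results turn on the first 4 (SCD, FADS1, FADS3, ELOVL1) and because the last 2 (INSIG1, SREBF2) are the genes of the pathway in which the extended E-box and the sterol regulatory element were found. Each runs 5′ to 3′ on the gene's own strand from 250 bases before to 50 after the start in RefSeq (GRCh38.p14). The positions are chr10:100346983-100347282 (plus strand) for SCD, chr11:61816954-61817253 (minus) for FADS1, chr11:61891496-61891795 (minus) for FADS3, chr1:43367962-43368261 (minus) for ELOVL1, chr7:155297628-155297927 (plus) for INSIG1 and chr22:41832855-41833154 (plus) for SREBF2. Capitals mark the extended E-box TCACGTGA, the sterol regulatory element TCACNCCAC and the CCAAT box, on either strand.
SCD: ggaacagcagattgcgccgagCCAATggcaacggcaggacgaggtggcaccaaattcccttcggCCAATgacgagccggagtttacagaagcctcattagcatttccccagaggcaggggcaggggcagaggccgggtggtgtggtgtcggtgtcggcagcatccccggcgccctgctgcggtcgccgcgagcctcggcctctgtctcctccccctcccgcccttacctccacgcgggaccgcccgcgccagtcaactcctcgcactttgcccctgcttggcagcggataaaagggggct
FADS1: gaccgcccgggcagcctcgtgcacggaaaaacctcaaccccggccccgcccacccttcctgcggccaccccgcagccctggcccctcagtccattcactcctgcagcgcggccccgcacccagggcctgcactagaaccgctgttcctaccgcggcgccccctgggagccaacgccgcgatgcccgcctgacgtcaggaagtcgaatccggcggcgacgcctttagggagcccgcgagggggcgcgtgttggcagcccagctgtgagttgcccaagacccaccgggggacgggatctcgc
FADS3: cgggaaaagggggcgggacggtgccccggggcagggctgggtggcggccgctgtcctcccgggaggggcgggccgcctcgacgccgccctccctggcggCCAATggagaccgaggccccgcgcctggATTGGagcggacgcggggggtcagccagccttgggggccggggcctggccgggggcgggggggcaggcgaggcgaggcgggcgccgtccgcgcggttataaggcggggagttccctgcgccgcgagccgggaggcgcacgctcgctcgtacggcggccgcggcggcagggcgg
ELOVL1: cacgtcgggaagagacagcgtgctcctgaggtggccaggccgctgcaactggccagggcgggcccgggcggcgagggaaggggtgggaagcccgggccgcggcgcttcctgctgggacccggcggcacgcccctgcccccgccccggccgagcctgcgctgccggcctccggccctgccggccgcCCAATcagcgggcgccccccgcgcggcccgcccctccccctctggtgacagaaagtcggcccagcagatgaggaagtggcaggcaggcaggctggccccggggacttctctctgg
INSIG1: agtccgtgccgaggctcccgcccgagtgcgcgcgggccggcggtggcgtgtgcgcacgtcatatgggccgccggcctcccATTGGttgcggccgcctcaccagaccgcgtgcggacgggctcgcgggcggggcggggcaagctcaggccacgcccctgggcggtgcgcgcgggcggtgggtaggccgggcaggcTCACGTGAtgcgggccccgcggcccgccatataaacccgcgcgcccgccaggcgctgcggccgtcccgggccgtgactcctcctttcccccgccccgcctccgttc
SREBF2: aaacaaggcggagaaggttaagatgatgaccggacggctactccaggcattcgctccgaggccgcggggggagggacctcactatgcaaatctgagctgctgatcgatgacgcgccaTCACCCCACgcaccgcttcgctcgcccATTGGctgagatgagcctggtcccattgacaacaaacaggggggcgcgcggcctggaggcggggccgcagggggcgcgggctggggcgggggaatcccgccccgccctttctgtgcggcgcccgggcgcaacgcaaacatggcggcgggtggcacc
A start region was held for 37 of the 41 genes, 21 of the cholesterol and 16 of the fatty acid arm. The E-box core CACGTG, which lies inside the extended form, was in 4 regions of the cholesterol arm (INSIG1, LSS, SC5D and SCAP) and 1 of the fatty acid arm (ELOVL5), against 10.5% of the regions of all listed genes. The extended E-box was in INSIG1 alone, at -56 to -49 from the start, against 2.02% of listed genes. The sterol regulatory element was in SREBF2 alone, at -133 to -125, against 1.09% of listed genes. CCAAT was in 15 of 21 and 9 of 16 regions, against 37.1%, and the GC box GGGCGG in 20 of 21 and 14 of 16, against 71.0%. The SCD region held CCAAT at -229 to -225 and at -186 to -182, and the FADS1 region held neither CACGTG nor CCAAT. Other forms of the E-box were not searched. These are matches of letters in a window of 300 bases and say nothing of binding.

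RNA was measured by sequencing the 3′ ends of polyadenylated transcripts, with 2568187 to 3714608 reads per library. Values are the deposited reads per 1000000 of the effective library size, given as mean ± SD of 3 libraries. Changes are differences in log2(value + 1) with their standard error (SE), and a gene passed the test at a limma adjusted p under 0.05 over all 12616 genes. MITF, the target of the hairpin, stood at 657, 663 and 708 in the MeWo control and 451, 354 and 371 in the MeWo Dox libraries. In SkMel28 it stood at 861, 739 and 792 in control and 575, 578 and 552 in Dox. Every Dox library lay below every control library of its line, and MITF fell in both (by 0.79, SE 0.11, adjusted p = 6.49e-05, and by 0.49, SE 0.11, adjusted p = 0.00705, limma). The labelled cell type was checked with 7 melanocyte markers, all of which were measured, PMEL at 2530 to 7694. These markers moved with Dox themselves: all 7 passed in MeWo (2 higher and 5 lower, -1.65 to 1.96) and 3 in SkMel28 (1 higher and 2 lower). Between the control groups 3 of the 7 passed, 2 higher and 1 lower in SkMel28, where 51.4% of all genes passed. The differences over the 7 ran from -4.2 to 3. TYRP1 was far lower in SkMel28 control (109 ± 16.2) than in MeWo control (2048 ± 113), and the part of these markers in the results was not tested. Of 10 markers of other cell types, 8 are not among the listed genes, while CDH1 and DCN together had a summed value of 45.5 to 63.8 without and 22.3 to 32.2 with Dox in MeWo, and of 3.06 to 5.71 without and 0.668 to 2.08 with Dox in SkMel28, and their part in the results was not tested. In bulk RNA, fewer cells with a transcript and less of it per cell cannot be told apart. Correlations between replicates across genes were 0.984 to 0.985, 0.979 to 0.983 and 0.981 to 0.985 in MeWo control, SkMel28 control and SkMel28 Dox, and 0.960 to 0.976 in MeWo Dox, where replicate 1 stood apart from replicates 2 and 3.

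The first comparison asked how the pathway genes moved with Dox in each line. In the cholesterol arm, 2 of 24 genes passed the test in MeWo (MSMO1 and DHCR7, both lower) and 1 of 24 in SkMel28 (ACAT2, lower), where 16.7% and 10.9% of all genes passed. In the fatty acid arm, 4 of 17 passed in MeWo (FADS1, FADS3 and ELOVL1 higher, SCD lower) and 2 of 17 in SkMel28 (SCD and ELOVL6, lower). By direction, 8.58% of all genes were higher and 8.12% lower in MeWo, and 5.88% higher and 5.04% lower in SkMel28. The median change over the cholesterol arm was 0.10 in MeWo and -0.16 in SkMel28, and over the fatty acid arm -0.06 and 0.05, beside 0.00 over all genes in both lines. The shares of each arm that passed lay near or below those of all genes, apart from the fatty acid arm in MeWo (23.5%), which rests on 4 genes.

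SCD, the stearoyl-CoA desaturase that makes oleate and palmitoleate, was the one gene of the 41 that passed in both lines. In MeWo it stood at 394, 383 and 419 in control and at 172, 207 and 218 in Dox. In SkMel28 it stood at 1111, 1192 and 1225 in control and at 794, 801 and 799 in Dox. The Dox libraries lay below all control libraries in both lines, and the 4 groups did not overlap each other. SCD fell from 399 ± 18.6 to 199 ± 23.9 in MeWo (-1.0, SE 0.11, adjusted p = 3.67e-06) and from 1176 ± 58.8 to 798 ± 3.68 in SkMel28 (-0.56, SE 0.11, adjusted p = 0.00196, limma), and both calls held in all 23 alternatives. The difference between these changes was -0.45 (SE 0.15, adjusted p = 0.0757, limma), which did not pass. SCD5, the other stearoyl-CoA desaturase, did not pass in either line, at 53.7 ± 3.94 and 45.8 ± 8.53 in MeWo control and Dox, and 24.3 ± 1.58 and 25.6 ± 4.28 in SkMel28.

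**Figure D1:**
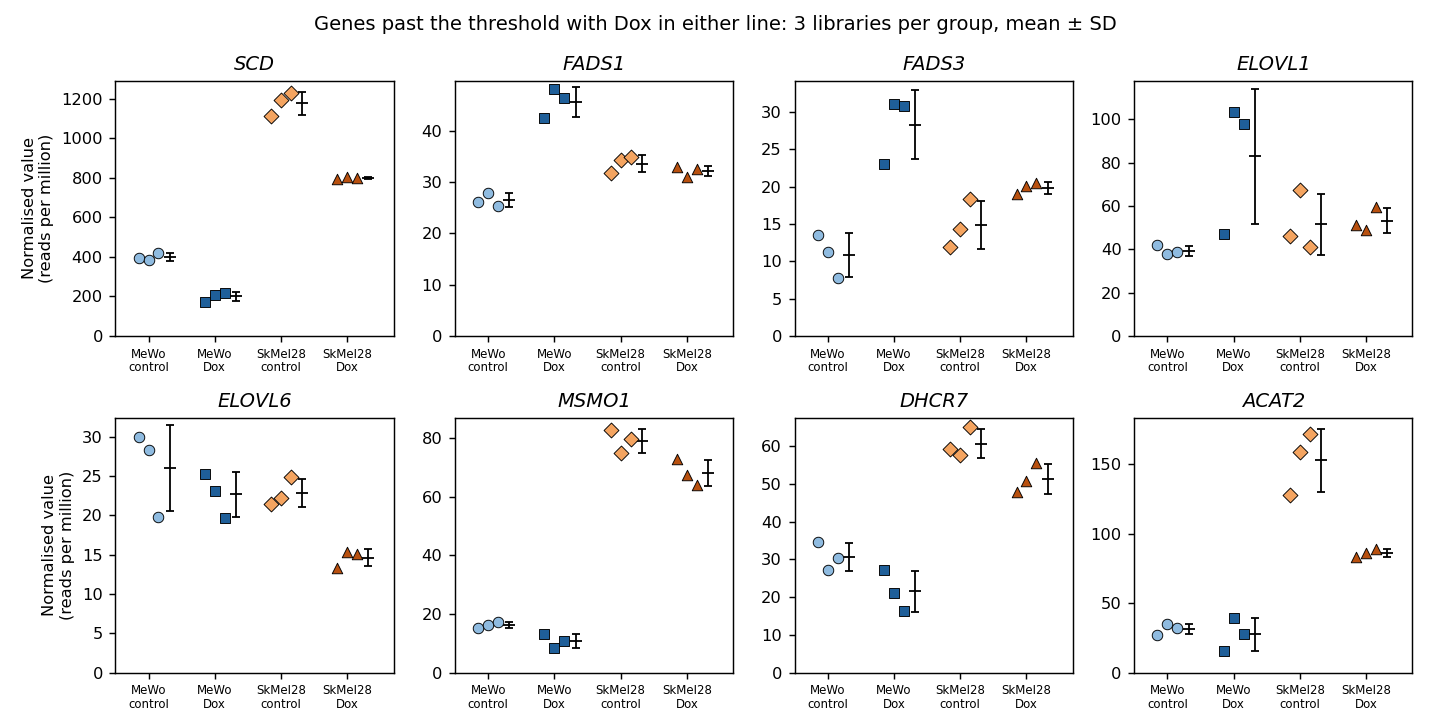
Values (reads per 1000000 of the effective library size) for the 8 genes past the threshold with Dox in either line. Points are the 3 libraries of each group, and bars beside them are the mean ± SD. SCD is lower in the Dox libraries of both lines, while FADS1 is higher in MeWo Dox (42.5 to 48.1) than in any other group.

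FADS1, the delta-5 desaturase of polyunsaturated fatty acids, was higher with Dox in MeWo. It stood at 26.2, 28.0 and 25.3 in MeWo control and at 42.5, 48.1 and 46.4 in MeWo Dox. In SkMel28 it stood at 31.7, 34.3 and 34.9 in control and at 33.0, 31.1 and 32.6 in Dox. The MeWo Dox libraries were above all 9 others, and the SkMel28 groups overlapped. The change was 0.76 (SE 0.14, adjusted p = 0.000827) in MeWo and -0.06 (SE 0.14, adjusted p = 0.851) in SkMel28. The changes differed by 0.82 (SE 0.19, adjusted p = 0.0168, limma), the 1 gene of the 41 for which the difference in response passed, where 7.09% of all genes did (3.71% with the higher and 3.38% with the lower change in MeWo). The FADS1 gene (chr11:61799627-61829318, minus strand, hg38) lies within the span of FADS2 (chr11:61792980-61867354, plus strand), whose product is the delta-6 desaturase, and the strand used in counting is not stated. In the annotation from which these positions come, the last exon of FADS1 overlapped no exon of FADS2. FADS2 was near the limit of detection, at 1 to 14 reads per library.

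FADS3, which lies in the same gene cluster (chr11:61873519-61892051, minus strand), stood at 13.5, 11.3 and 7.77 in MeWo control and 23.0, 31.1 and 30.8 in MeWo Dox. The SkMel28 control libraries stood at 12, 14.3 and 18.4 and the Dox libraries at 19.0, 20.1 and 20.5. The groups did not overlap within either line, with Dox on the higher side in both. FADS3 rose in MeWo (1.32, SE 0.22, adjusted p = 0.000399, limma) and did not pass in SkMel28 (0.41, SE 0.22, adjusted p = 0.269). The difference between the lines was 0.91 (SE 0.31, adjusted p = 0.0788, limma), which did not pass. The MeWo rises of FADS1 and FADS3 held in all 23 alternatives.

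ELOVL1 encodes an elongase of saturated and monounsaturated very long chains. It stood at 42.0, 37.7 and 38.5 in MeWo control and at 47.2, 103 and 97.9 in MeWo Dox. In SkMel28 it stood at 46.2, 67.6 and 41 in control and at 51.4, 48.8 and 59.5 in Dox. The MeWo groups did not overlap, although Dox replicate 1 lay much nearer to the controls than the other Dox libraries, and the SkMel28 groups overlapped. The change was 0.97 in MeWo (SE 0.24, adjusted p = 0.00916, limma), and the call was lost with MeWo fitted alone (adjusted p = 0.123) and without MeWo Dox replicate 3 (adjusted p = 0.0553).

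ELOVL6, which lengthens palmitate to stearate, stood at 21.4, 22.2 and 24.9 in SkMel28 control and at 13.4, 15.4 and 15.1 in SkMel28 Dox. In MeWo it stood at 29.9, 28.4 and 19.8 in control and at 25.2, 23.1 and 19.6 in Dox. The SkMel28 groups did not overlap and the MeWo groups did. ELOVL6 fell in SkMel28 (by 0.61, SE 0.19, adjusted p = 0.0433, limma), a call lost in 11 of 23 alternatives, 8 of them omissions of 1 library (any of the 6 SkMel28 libraries, or MeWo control replicate 1 or 2, adjusted p = 0.0504 to 0.157), and was at -0.18 in MeWo (SE 0.19, adjusted p = 0.561). ELOVL5, which acts on polyunsaturated chains, did not pass in either line.

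The genes that supply and build the chain did not pass in either line. ACLY, which cleaves citrate to acetyl-CoA, stood at 182 ± 7.03 and 192 ± 20.6 in MeWo control and Dox. ACSS2 was below all controls in the MeWo Dox libraries (4.40 to 5.43 against 6.48 to 7.77) without passing (-0.50, SE 0.21, adjusted p = 0.113, limma). ACACA, the acetyl-CoA carboxylase, was at 15.9 ± 1.13 in MeWo control and 19.9 ± 4.06 in SkMel28 control. FASN, the fatty acid synthase, stood at 128, 124 and 131 in MeWo control and 154, 98.9 and 91.8 in MeWo Dox, a change of -0.19 (SE 0.16, adjusted p = 0.467, limma), with Dox replicate 1 above and replicates 2 and 3 below all controls. In SkMel28 FASN was at 360 ± 46.0 and 339 ± 30.6. ACSL3, an acyl-CoA synthetase of lipid droplets, was higher in all MeWo Dox libraries (264 to 366 against 240 to 256) and lower in all SkMel28 Dox libraries (244 to 278 against 281 to 307), and passed in neither (0.35, adjusted p = 0.0555, and -0.16, adjusted p = 0.458, limma). ACSL1, ACSL4, ME1 and SLC27A1 were at -0.26, -0.10, 0.05 and -0.06 in MeWo and at 0.41, 0.05, 0.19 and -0.36 in SkMel28, none of which passed. Summed over the 17 genes of the arm, the value was 1355 ± 20.7 in MeWo control and 1274 ± 80.1 in Dox, and 2514 ± 56.9 and 2105 ± 30.6 in SkMel28. Without SCD the sums were 957 ± 6.76 and 1075 ± 93.6 in MeWo, and 1338 ± 42.0 and 1307 ± 27.3 in SkMel28.

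**Figure D2:**
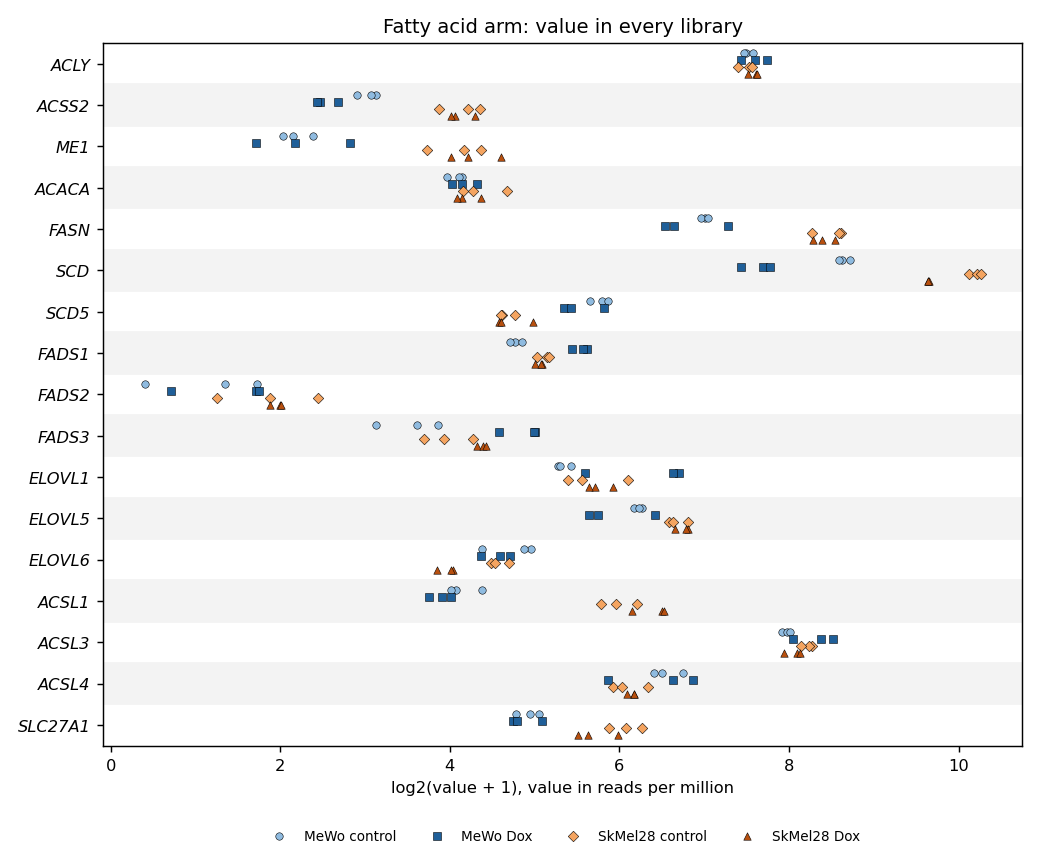
Value of each of the 17 fatty acid genes in every library, as log2(value + 1), in the order supply, chain synthesis, desaturases, elongases, acyl-CoA synthetases and uptake. SCD is separated by both line and Dox, and ACLY overlaps across the 4 groups.

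In the cholesterol arm the genes that passed with Dox were few and near the threshold. MSMO1, the methylsterol oxidase that removes methyl groups after lanosterol, stood at 15.3, 16.3 and 17.2 in MeWo control and at 13.1, 8.34 and 10.8 in Dox. Its SkMel28 values were 83.0, 74.9 and 79.7 in control and 73.0, 67.5 and 64.1 in Dox. Dox libraries were below all controls in both lines. MSMO1 fell in MeWo (by 0.57, SE 0.16, adjusted p = 0.0227, limma), a call lost in 6 of 23 alternatives, with an adjusted p of 0.0681 to 0.0957 without MeWo control replicate 2 or 3 or MeWo Dox replicate 2 and of 0.351 with spike-in scaling, and was at -0.21 in SkMel28 (SE 0.16, adjusted p = 0.475).

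DHCR7, the reductase of 7-dehydrocholesterol, stood at 34.6, 27.2 and 30.4 in MeWo control and at 27.1, 21.2 and 16.3 in Dox. Its SkMel28 values were 59.3, 57.8 and 65.1 in control and 47.8, 50.8 and 55.6 in Dox. Dox libraries were again below all controls in both lines, in MeWo narrowly. DHCR7 fell in MeWo (by 0.52, SE 0.17, adjusted p = 0.0487, limma), a call lost in 19 of 23 alternatives, among them the omission of any 1 library but MeWo Dox replicate 1 (adjusted p = 0.0589 to 0.228).

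ACAT2, which joins acetyl-CoA units at the first step, stood at 128, 159 and 172 in SkMel28 control and at 83.4, 86.2 and 89.1 in Dox. In MeWo it stood at 27.4, 35.0 and 31.7 in control and at 15.3, 39.0 and 28.1 in Dox. The SkMel28 groups did not overlap and the MeWo groups did. ACAT2 fell in SkMel28 (by 0.81, SE 0.23, adjusted p = 0.0315, limma), a call lost in 7 of 23 alternatives, among them the omission of any SkMel28 Dox library or of SkMel28 control replicate 2 or 3 (adjusted p = 0.0681 to 0.137). All 454 bases of its last exon overlap TCP1 on the opposite strand, and the strand used in counting is not stated.

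Counted without a test, the cholesterol genes of SkMel28 lay more often below than above control: the Dox libraries of 9 genes were below all controls and those of 3 above, where 32.3% of all genes did not overlap (16.1% below and 16.1% above). The 9 were ACAT2, HMGCS1, MVD, FDPS, SQLE, LSS, MSMO1, EBP and DHCR7, and the 3 were SC5D, INSIG1 and SREBF1. All 257 bases of the FDPS last exon overlap RUSC1-AS1 on the opposite strand. In MeWo the Dox libraries of 4 genes were below (IDI1, LSS, MSMO1, DHCR7) and of 1 above (FDFT1), where 28.8% of all genes did not overlap (14.7% below and 14.1% above). In the fatty acid arm the Dox libraries of 4 genes were above and 2 below in MeWo, and of 1 above and 3 below in SkMel28. Summed over the 18 enzymes of the cholesterol arm, SkMel28 went from 1282 ± 40.1 to 1113 ± 22.3 and MeWo from 546 ± 21.3 to 562 ± 62.4. The largest fall in value among the 18 in SkMel28 was that of ACAT2, from 153 ± 22.7 to 86.3 ± 2.86.

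**Figure D3:**
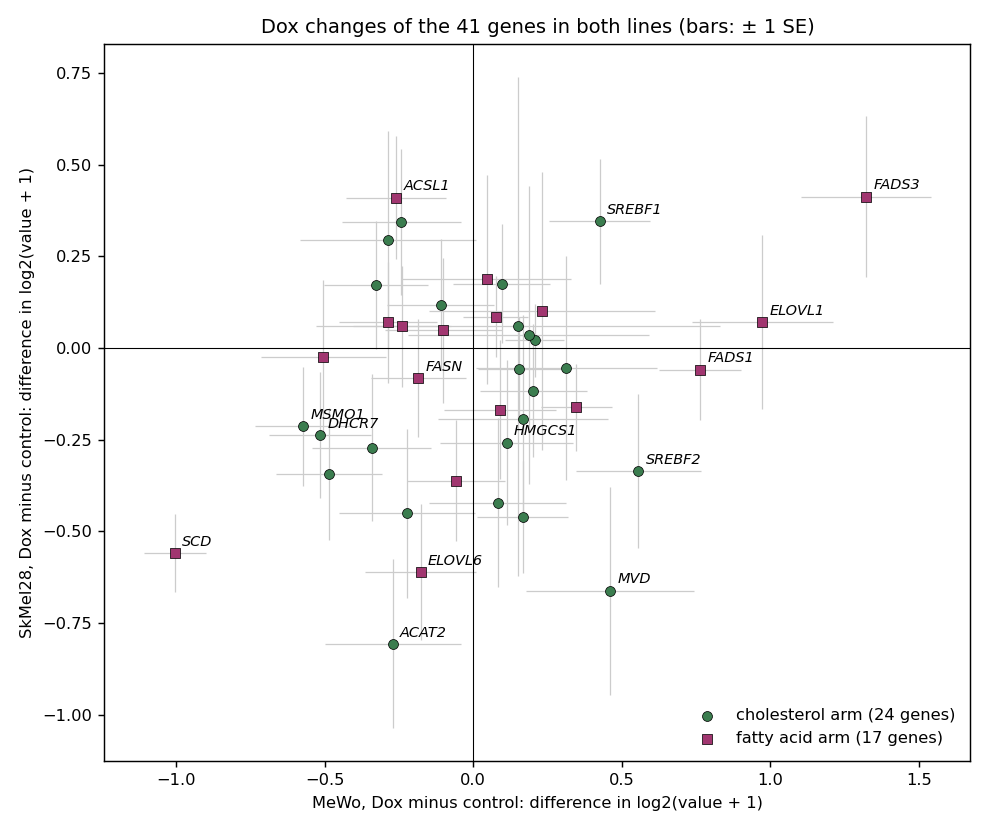
Dox change in MeWo (horizontal) against SkMel28 (vertical) of each of the 41 genes, as differences in log2(value + 1), with bars of 1 SE. SCD lies at -1.0 and -0.56, FADS3 at 1.32 and 0.41, and most other genes lie within 0.5 of 0 in both lines.

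The regulators did not pass with Dox in either line by limma. SREBF2, which encodes the factor that mainly drives cholesterol genes, stood at 61.9, 52.8 and 58.9 in MeWo control and at 54.3, 101 and 113 in Dox. Replicate 1 was within the control range and the other Dox libraries well above it. The change was 0.56 in MeWo (SE 0.21, adjusted p = 0.0793) and -0.33 in SkMel28 (SE 0.21, adjusted p = 0.364), and the difference was 0.89 (SE 0.30, adjusted p = 0.0740, limma). The MeWo change passed with edgeR (0.62), DESeq2 (0.64) and spike-in scaling (0.83) and without MeWo Dox replicate 1, as did the difference between the lines. SREBF1, which mainly drives fatty acid genes, was at 0.43 in MeWo (SE 0.17, adjusted p = 0.0993) and 0.35 in SkMel28 (SE 0.17, adjusted p = 0.233, limma), and its MeWo change passed with spike-in scaling (0.69) and without MeWo Dox replicate 2. The last exon of SREBF1 shares 120 of 1518 bases with RAI1 on the opposite strand. INSIG1, INSIG2 and SCAP were at -0.33, 0.19 and 0.10 in MeWo and at 0.17, 0.03 and 0.18 in SkMel28. For the difference between the lines, 0 of 24 cholesterol genes passed (limma), where 7.09% of all genes did. By edgeR and by DESeq2 the 1 that passed was SREBF2, and the shares of all genes under these tests are not given here.

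MeWo Dox replicate 1 bears on these counts. Over the 41 genes it was the farthest of the 3 MeWo Dox libraries from the other two in 18, replicate 2 in 11 and replicate 3 in 12, and over all genes it was the farthest in 44.5%. It was also apart in SOX10 and TYR, lineage markers picked after their values were seen. The other lineage markers are not given by library here. SOX10 stood at 312 in it, 158 and 155 in replicates 2 and 3 and 289 to 296 in control. TYR stood at 389 in it, 167 and 194 in replicates 2 and 3 and 346 to 398 in control. Without it 6 cholesterol genes passed in MeWo (MVD and SREBF2 higher, MSMO1, SC5D, DHCR7 and INSIG1 lower) and 7 fatty acid genes (FADS1, FADS3, ELOVL1 and ACSL3 higher, SCD, FASN and ELOVL5 lower), while the share of all genes rose to 31.0%. For the difference between the lines 7 cholesterol genes passed without it (6 higher and 1 lower in the MeWo change) and 7 fatty acid genes (4 and 3), where 24.7% of all genes did. SREBF2 then rose in MeWo by 0.88 (adjusted p = 0.000115) and SC5D, the lathosterol oxidase, fell by 0.81 (adjusted p = 0.00170, limma), and SC5D stood at 28.7 in replicate 1 against 9.85 and 8.47 in the others. In replicate 1 MITF stood at 451, against 354 and 371 in the other MeWo Dox libraries, and SCD at 172, against 207 and 218. What sets this library apart was not tested.

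**Figure D4:**
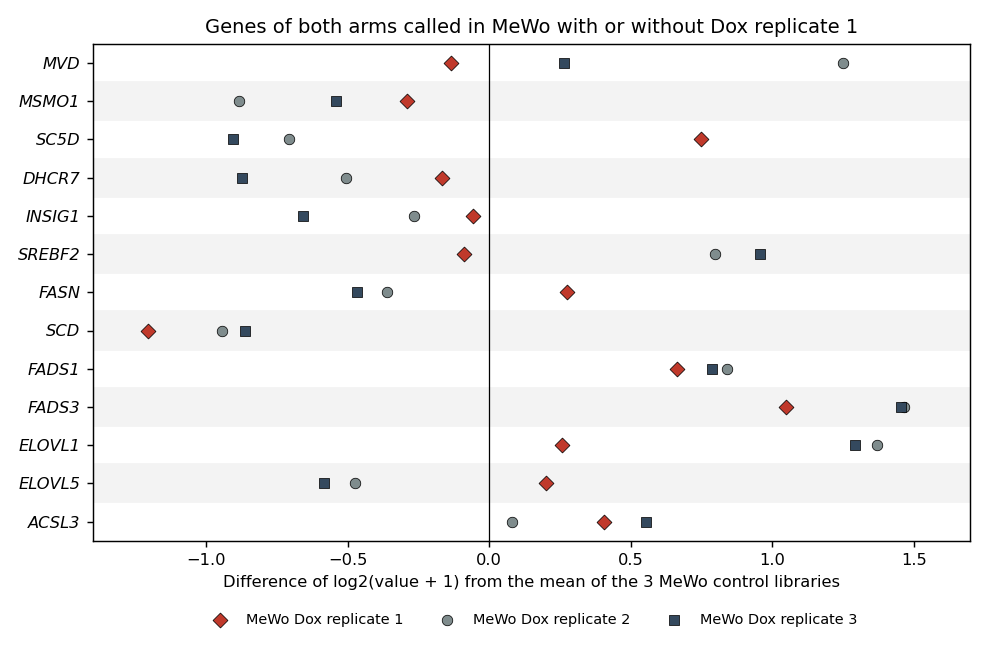
Difference of each MeWo Dox library from the mean of the MeWo control libraries, in log2(value + 1), for the 13 genes of both arms that passed in MeWo with or without Dox replicate 1. Replicate 1 lies on the other side of 0 from replicates 2 and 3 for MVD, SC5D, SREBF2, FASN and ELOVL5 and on the same side for SCD, FADS1 and FADS3. MVD, SC5D, SREBF2, FASN and ELOVL5 are shown because they passed without replicate 1, a choice that favours genes in which it differs.

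The second comparison set the lines side by side without Dox. In SkMel28 control 18 of 24 cholesterol genes differed from MeWo control, 16 higher and 2 lower, where 51.4% of all genes passed (26.6% higher, 24.8% lower). The median difference over the arm was 0.79, beside 0.00 over all genes. Of the fatty acid genes 8 of 17 passed, 7 higher and 1 lower, with a median of 0.43. The SkMel28 control libraries lay above all MeWo control libraries for 16 cholesterol and 10 fatty acid genes and below for 3 and 2, where 62.1% of all genes did not overlap (31.6% above, 30.5% below). Calls of MVK, MVD, IDI1, SC5D, TM7SF2, SREBF1 and ELOVL5 were each lost with 1 or more single libraries left out, and the counts then ranged from 13 to 19 and from 7 to 11.

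By step, 6 of 7 genes from acetyl-CoA to farnesyl diphosphate were higher in SkMel28, all 3 from squalene to lanosterol were higher, and of 8 from lanosterol to cholesterol 5 were higher and 1 lower. CYP51A1, the lanosterol demethylase, stood at 22.5 to 23.6 in MeWo control and at 123 to 139 in SkMel28 control (2.47, SE 0.14, adjusted p = 1.60e-10, limma). SQLE, the squalene epoxidase and a rate-limiting enzyme, was at 10.2 ± 1.87 and 48.3 ± 0.112 (2.16, SE 0.18, adjusted p = 2.67e-08, limma). MSMO1 differed by 2.22, ACAT2 by 2.24, EBP, the sterol isomerase, by 2.01, and HMGCS1, which makes HMG-CoA, by 1.59, and the groups of none of these 4 overlapped. PMVK, NSDHL and HSD17B7 did not pass (-0.27, -0.01 and 0.17), and HSD17B7 was at 0 to 18 reads per library.

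The 2 cholesterol genes lower in SkMel28 were TM7SF2, a sterol reductase at 2 to 15 reads per library (difference -1.01, adjusted p = 0.0106, limma), and SREBF1 (40.8 ± 4.90 in MeWo, 27.7 ± 1.12 in SkMel28, -0.54, adjusted p = 0.0145, limma). The first was lost without MeWo control replicate 3 or SkMel28 control replicate 2 (adjusted p = 0.0544 to 0.0641) and the second without MeWo control replicate 3 (adjusted p = 0.0712) or with spike-in scaling (-0.39). SREBF2 went the other way, at 57.9 ± 4.62 in MeWo and 183 ± 38.0 in SkMel28 (1.62, SE 0.21, adjusted p = 5.11e-06, limma). STARD4, a sterol transporter, was higher in SkMel28 as well (1.58, SE 0.28, adjusted p = 0.000176, limma). INSIG1, INSIG2 and SCAP did not pass.

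**Figure D5:**
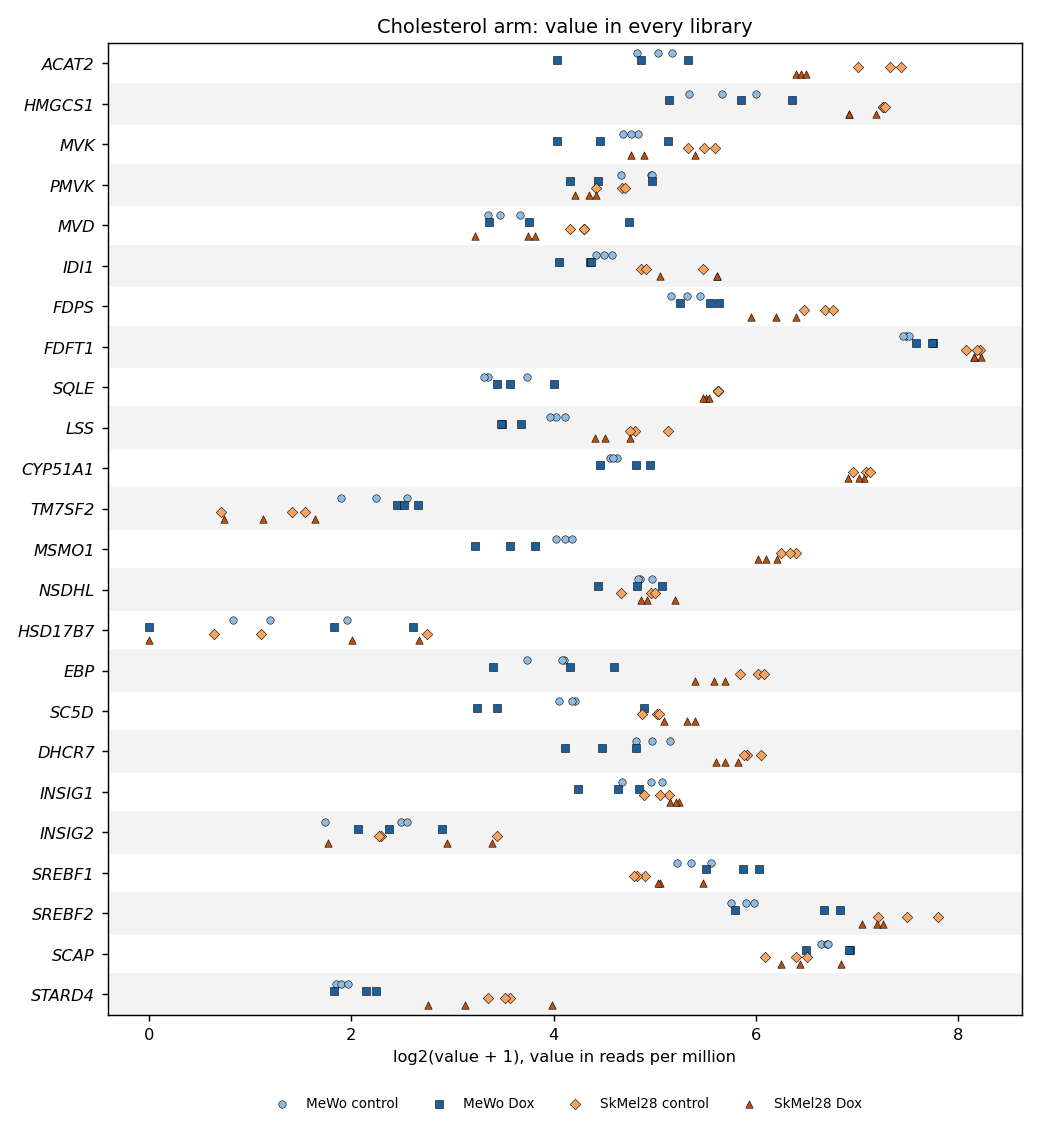
Value of each of the 24 cholesterol genes in every library, as log2(value + 1), in pathway order with the regulators and STARD4 last. For CYP51A1, SQLE, MSMO1 and EBP all 6 SkMel28 libraries lie above all 6 MeWo libraries.

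In the fatty acid arm the largest line differences were in ME1, the malic enzyme that yields NADPH (1.90, SE 0.28, adjusted p = 2.70e-05), ACSL1, an acyl-CoA synthetase (1.83, SE 0.17, adjusted p = 8.89e-08), SCD (1.56, SE 0.11, adjusted p = 1.67e-09) and FASN (1.48, SE 0.16, adjusted p = 6.16e-07, limma). SCD5 was the exception, lower in SkMel28 (difference -1.11, SE 0.16, adjusted p = 2.36e-05, limma), so that the stearoyl-CoA desaturases differed in opposite directions. SLC27A1, a fatty acid transporter, and ACSS2, which makes acetyl-CoA from acetate, were also higher in SkMel28 (1.14, SE 0.16, adjusted p = 1.80e-05, and 1.12, SE 0.21, adjusted p = 0.000273, limma). ELOVL5 was higher by 0.46 (adjusted p = 0.0273), and ACACA and ACSL4 did not pass (0.29 and -0.46, adjusted p = 0.203 and 0.0622, limma). ACLY did not differ beyond its spread (-0.02, SE 0.11, adjusted p = 0.910, limma). Among the Dox libraries, 15 cholesterol genes lay above and 2 below in SkMel28 without overlap, where 55.9% of all genes did not overlap (29.3% above, 26.6% below), and 8 and 4 fatty acid genes. These were not all the genes that were apart in control: FADS1 was above in SkMel28 control and below in SkMel28 Dox, MVK, MVD, ACACA and ACSL3 went from above and SCAP and ACSL4 from below to overlap, and INSIG1, FADS2, FADS3 and ELOVL6 were apart in the Dox libraries alone.

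Genes of sterol handling outside the 41 numbered 26 of 28 listed by hand. Those that passed with Dox were 6 in MeWo (2 higher, 4 lower) and 8 in SkMel28 (4 and 4), which is 23.1% and 30.8% of those measured beside 16.7% and 10.9% of all genes. SOAT1, which esterifies cholesterol, fell in MeWo (58.9 ± 5.11 to 27.4 ± 3.10, -1.08, adjusted p = 4.31e-05, limma). SCARB1 and APOE, of lipoprotein uptake and export, fell in SkMel28 (-1.03, adjusted p = 6.55e-05, and -0.73, adjusted p = 0.00339, limma), and the APOE call was lost with the GC correction (adjusted p = 0.0968).

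Of 56 other fatty acid genes listed by hand 48 were measured, and with Dox 12 passed in MeWo (4 higher, 8 lower) and 10 in SkMel28 (3 and 7), or 25.0% and 20.8% beside 16.7% and 10.9% of all genes. Of 15 genes of mitochondrial fatty acid oxidation, 4 passed in MeWo (1 higher, 3 lower) and 5 in SkMel28 (1 and 4). HADH and HADHB, 2 enzymes of this pathway, were lower with Dox in both lines. HADH was at -0.74 and -0.53 in MeWo and SkMel28 (adjusted p = 0.00157 and 0.0241), and HADHB at -0.64 and -0.97 (adjusted p = 0.00200 and 7.49e-05, limma). The MeWo calls of both were lost with spike-in scaling (adjusted p = 0.0922 and 0.187), and the SkMel28 call of HADH without any 1 of the 3 Dox libraries or control replicate 1 or 2 (adjusted p up to 0.0941). LPIN1, a phosphatidate phosphatase, fell in MeWo (50.3 ± 4.59 to 26.9 ± 3.62, -0.88, adjusted p = 0.000552, limma). DGAT2, which makes triglyceride, rose there from 1 to 7 reads per library to 7 to 14 (1.21, adjusted p = 0.0243, limma), a call that edgeR and DESeq2 did not give and that was lost without MeWo control replicate 1 or 2 or MeWo Dox replicate 3 (adjusted p up to 0.124).

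CD36, a fatty acid receptor, stood at 4.18, 2.54 and 1.53 in SkMel28 control and at 15.4, 14.4 and 10.9 in Dox (2.01, adjusted p = 0.000171, limma), and at 0 or 1 read in every MeWo library. ELOVL2, an elongase of polyunsaturated chains, stood at 18.9, 22.5 and 21.5 in SkMel28 control and at 50.8, 52.5 and 51.4 in Dox (1.26, adjusted p = 0.000922, limma), with 0 reads in all 6 MeWo libraries. The SkMel28 Dox libraries were above all controls for both genes.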

How the data were processed

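Total RNA of 12 libraries (2 lines, 0 or 1 µg/ml Dox, 3 libraries each) was sequenced from the 3′ end with the QuantSeq Forward kit. The deposited values are a normalised signal that the authors made with edgeR as reads divided by the effective library size, times 1000000. The submitters' processing notes name FastQC 0.11.7, cutadapt 2.8, STAR 2.5.1b, edgeR and hg38. The counting tool, annotation and strand are not given in the sources used here. All values (100%, within 0.01 of a read) were whole multiples of 1 read, which was worth 0.278 to 0.389, so reads were recovered, and totals were 2568187 to 3714608. The table holds 12683 features, of which 67 are spike-ins (5.69 to 8.55% of reads) and 12616 genes. All features reach 1 or more in 3 or more libraries.

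The log2(value + 1) values were fitted with limma 3.58.1, run in R 4.3.3 (lmFit, eBayes with a mean-variance trend, 4 group means over all 12 libraries), with Benjamini-Hochberg adjustment over the 12616 genes and a two-sided threshold of 0.05. For each line, control was subtracted from Dox, and the SkMel28 change was then subtracted from the MeWo change. A last contrast, SkMel28 control minus MeWo control, shares control libraries with the Dox contrasts. Alternatives tried were recovered reads tested with edgeR 4.0.16 and with DESeq2 1.42.0, scaling by upper quartile or spike-ins, pseudocounts of 0.1 and 5, a filter of 5 in 3 libraries, no trend, each line alone, a replicate block and each library left out. A GC correction was added after seeing the data. The scripts were tested on simulated data. The genes described and the lists were chosen with earlier results of these data known. The 41 genes are described in role order, with per-library values for those past the threshold at an absolute log2 change of 0.5 or more, and 3 called genes with the largest change are named from each other list and line, some of which are not reported here. SREBF2, SC5D, FASN, ACSL3, SOX10 and TYR were added after their values were seen.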

Additional observations from a re-analysis of the deposited data

Results flagged for a closer look

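Of the 41 genes and those chosen from the other lists for their largest changes, 5 passed the test of a difference between the lines (limma, MeWo change minus SkMel28 change). Of the 41 genes this was FADS1 alone, with a difference of 0.82 (adjusted p = 0.0168), which was lost in 1 of 22 alternatives (adjusted p = 0.0508). Over the whole lists, 4 of 48 other fatty acid genes and 3 of 26 other sterol genes passed, where 7.09% of all genes did. Among those chosen from these lists, CD36 was at -2.28 (adjusted p = 0.00295) and ELOVL2 at -1.26 (adjusted p = 0.0209). MeWo held 0 or 1 read of both in every library, so that its change is near 0 by construction, neither a fall nor a rise of the same fold was detectable, and these values restate the SkMel28 rise rather than compare the lines. The edgeR fit called neither, and ELOVL2 was lost in 8 of 22 alternatives. LPIN1 differed by -0.73 (adjusted p = 0.0462) and was lost in 14 of 22 alternatives, 9 of them omissions of 1 library (adjusted p = 0.0602 to 0.126). SCARB1 differed by 0.68 (adjusted p = 0.0398) and was lost in 13 of 22, 10 of them omissions of 1 library (adjusted p = 0.0515 to 0.114).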

How the results depend on the processing

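Over the 41 genes and 4 comparisons (164 pairs), alternatives left 3543 values on the same side of the threshold. A further 78 lost the threshold and 58 gained it, with 0 reversed calls. Changes that passed in neither fit are among the 3543 even where their sign changed. Cholesterol genes passing in MeWo numbered 2, and 1 with DESeq2, with a pseudocount of 0.1 or 5, without the trend or with the replicate block, 0 with MeWo alone, and 0 to 6 with a library left out. The direction depended on scaling: with spike-in scaling, where the median of all genes stood at 0.22 in MeWo (0.00 otherwise) and at 0.30 in the difference between lines (-0.02 otherwise), the 2 that passed were SREBF1 and SREBF2, both higher, and edgeR gave 1 higher and 1 lower. In SkMel28 the count was 1, and 0 with a pseudocount of 0.1 or without the trend, and 0 to 2 with a library left out. For the difference between lines it was 0, but 1 with edgeR, 1 with DESeq2, 3 with spike-in scaling and 0 to 7 with a library left out. Fatty acid genes passing in MeWo numbered 4 (3 to 7 with a library left out). In SkMel28 they numbered 2, but 1 with DESeq2, spike-in scaling or the replicate block (1 to 2 with a library left out). For the difference they numbered 1, but 3 with DESeq2, 4 with spike-in scaling, 0 with the replicate block (FADS1, adjusted p = 0.0508) and 2 with the GC correction (1 to 7 with a library left out). The counts of 6 and 7 came without MeWo Dox replicate 1. The counts between the lines ranged from 13 to 19 (cholesterol) and 7 to 11 (fatty acid) with a library left out. The cause of each shift was not tested.

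Whether equal replicate numbers pair the libraries is not stated in the labels. The correlations of same-numbered deviations were -0.30, -0.07 and 0.05 in MeWo and -0.10, 0.12 and 0.29 in SkMel28. Those of different numbers were -0.27 to 0.34 in MeWo and -0.35 to 0.31 in SkMel28, and so few libraries cannot settle the pairing. The replicate block left 1 cholesterol and 4 fatty acid genes in MeWo, and 1 and 1 in SkMel28. For the line comparison, the block fit compared the lines at replicate 1, not over the control groups. It gave 13 cholesterol genes, all higher in SkMel28 (without TM7SF2 and SREBF1), and 8 fatty acid genes (6 higher and 2 lower). These counts are not comparable with those of the control groups, although their values are among the alternatives counted above. Depth limits TM7SF2, HSD17B7, FADS2, INSIG2, ME1 and STARD4, each with at least 1 library under 10 reads.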
